A study of Mus musculus with 2 samples.

Results

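The genes described here are 10 genes known from the surface ectoderm of the limb bud, the epithelial sheet that covers the mesenchyme: *Trp63*, *Grhl3*, *Krt5*, *Krt14*, *Krt15*, *Krt8*, *Krt18*, *Epcam*, *Cdh1* and *Perp*. They were chosen by name, with earlier results of these data known, out of 23157 genes in the deposited table. All 10 were found and passed a filter (a mean of at least 10 normalized reads) that 16756 genes passed in all. RNA came from distal forelimbs (the presumptive digits) of mouse embryos of the strain C57Bl6CBAF1 at E12.5, with 1 library from wild-type embryos (named wtFL) and 1 from embryos homozygous for the *HoxD* Inv(TpSB1-Itga6) allele (named invDFL). In this allele 2.4 Mb of chromosome 2 next to the *HoxD* cluster are turned around, and none of the 10 genes lies on that chromosome. The wild-type sample is titled wtFL while its column in the table is named wtDFL, and the tissue label of both samples is distal limb. The series describes RNA from 3 pairs of forelimbs, without saying how they were divided or how many embryos gave each library. Since each genotype has a single library, differences could not be checked against replicates and no test between the genotypes was possible. The 95% intervals of ratios come from exact Clopper-Pearson limits on the share of a gene's reads found in the inversion library. Counting error is all that these limits cover, and they set one library against the other, not one genotype against the other.

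The surface ectoderm at this stage is a basal layer under a thin periderm, thickened at the limb margin into the apical ectodermal ridge. *Trp63*, a relative of *Trp53*, encodes the transcription factor p63 that commits ectoderm to a stratified fate and is needed for the ridge and for limb outgrowth. Keratins assemble as pairs of one type I and one type II chain, *Krt8* with *Krt18* in simple epithelia and *Krt5* with *Krt14* in the basal layer of stratified ones, and E-cadherin, encoded by *Cdh1*, holds neighbouring epithelial cells together.

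The 10 genes were all lower in the inversion library, by a small and similar amount. Their log2 ratios (inversion over wild type), with a pseudocount of 1, lay between -0.38 (*Grhl3*) and -0.11 (*Trp63*), with a median of -0.23. Over all genes that passed the filter the median was -0.02, and 53.4% of them were below 0 (54.9% among genes with a mean in the range of the 10 genes). At or below the ratio of *Trp63*, the highest of the 10, were 28.9% of all genes and 28.6% of those in that range. None of the 10 genes was past 2-fold in either direction, a threshold that 3.99% of all genes passed upwards and 0.483% downwards. In 7 of the 10 genes the 95% interval lay wholly below 0, as it did in 13.0% of all genes. The 3 others were *Trp63*, *Krt8* and *Krt18*.

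Summed over the 10 genes, 6532 wild-type and 5715 inversion reads were found, which is 6614 and 5644 normalized reads. These sums gave a log2 ratio of -0.23 (95% interval -0.28 to -0.18), a ratio of 0.853. In whole tissue, fewer ectodermal cells and less RNA per ectodermal cell cannot be told apart. Each gene took a similar share of the sum in both libraries, with *Krt5* at 26.5% (wild type) and 26.6% (inversion), *Krt14* 14.4% and 14.3%, and *Trp63* 14.5% and 15.7%.

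**Figure D1:**
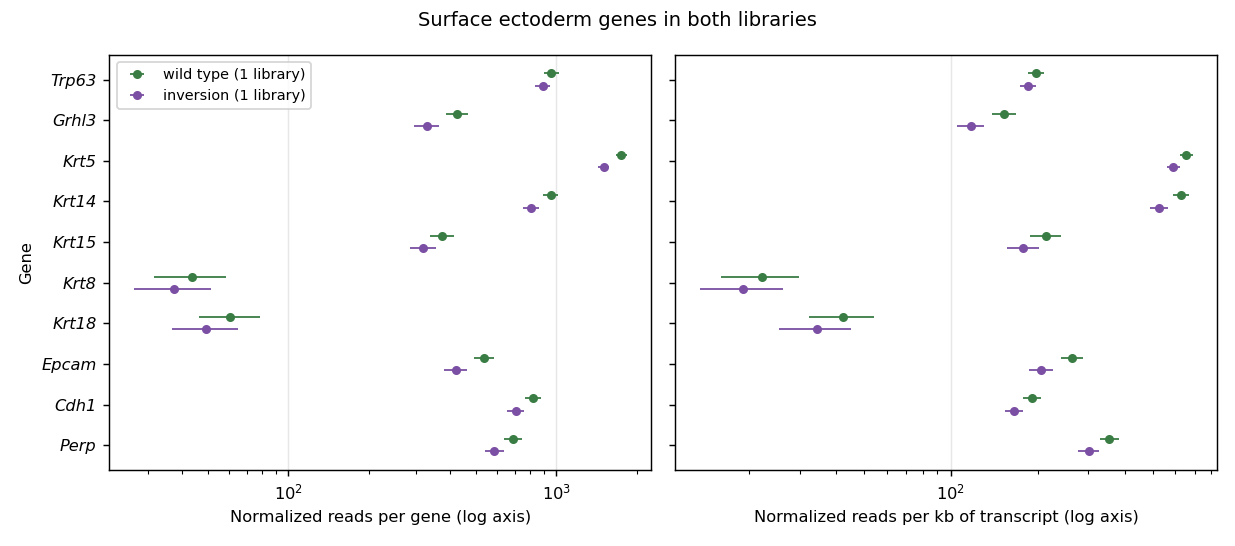
Normalized reads per gene (left) and normalized reads per kb of transcript (right), both on log axes, for the 10 surface ectoderm genes in the wild-type (green) and inversion (purple) library. Bars are 95% Poisson intervals of the reads. In each row the inversion point lies to the left of the wild-type point, from *Krt5* with 1750 and 1501 normalized reads down to *Krt8* with 43.5 and 37.5.

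Promoter sequences are shown for 3 of the genes, *Krt5* as the gene with the most reads, and *Grhl3* and *Epcam* as those with the lowest log2 ratios. The windows are the 250 bases before the start site in RefSeq on GRCm38.p6, written 5′ to 3′ on the strand of the gene. Capitals mark matches to the motifs searched on both strands. For Grhl factors these were AACCGGTT and its core ACCGGT. GCCNNNGGC was searched for AP-2 factors, and CACCTG for Snail and Zeb factors. For Sp and Klf factors GGGCGG was taken, and TATAAA for the TATA box. The core was added after the sequences were seen and is contained in the longer motif.
Krt5, chr15:101712906-101713155, minus strand: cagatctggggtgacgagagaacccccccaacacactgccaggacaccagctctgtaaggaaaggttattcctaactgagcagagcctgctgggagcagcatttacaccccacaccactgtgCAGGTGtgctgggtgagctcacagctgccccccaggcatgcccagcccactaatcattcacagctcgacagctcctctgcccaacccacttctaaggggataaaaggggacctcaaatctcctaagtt
Grhl3, chr4:135573633-135573882, minus strand: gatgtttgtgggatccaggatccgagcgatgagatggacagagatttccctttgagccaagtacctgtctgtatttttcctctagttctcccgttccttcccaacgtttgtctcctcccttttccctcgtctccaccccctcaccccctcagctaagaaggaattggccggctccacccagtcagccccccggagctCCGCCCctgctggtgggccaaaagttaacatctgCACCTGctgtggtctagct
Epcam, chr17:87635729-87635978, plus strand: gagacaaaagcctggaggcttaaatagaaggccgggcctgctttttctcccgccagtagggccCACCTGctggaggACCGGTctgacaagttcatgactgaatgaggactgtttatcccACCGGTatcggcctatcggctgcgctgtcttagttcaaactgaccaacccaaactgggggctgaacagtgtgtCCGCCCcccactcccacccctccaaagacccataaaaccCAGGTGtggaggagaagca

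The *Epcam* window held the core ACCGGT at 2 places, beginning 174 and 131 bases before the start site, whereas 1.86% of the 32851 windows of this length in the RefSeq table held it at all. The full AACCGGTT was in none of the 3 windows and in 0.116% of all. CACCTG, read on either strand, was in each of the 3, at 128 bases before the start of *Krt5*, 19 before that of *Grhl3*, and 187 and 19 before that of *Epcam*, with 17.2% of all windows holding it. GGGCGG was in the windows of *Grhl3* (53 bases before the start) and *Epcam* (58 bases) and in 32.7% of all. GCCNNNGGC (13.7% of all windows) and TATAAA (12.4%) were in none of the 3. These matches describe letters in a window and do not show that a factor is bound. Of the 10 genes, 6 had a window in the RefSeq table. The RefSeq start of *Krt14* lies 1518 bases inside its leading transcript, and those of *Krt8* and *Krt18* overlap the start of the transcript in GENCODE M21, so these 3 are not shown.

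Of the transcription factors, *Trp63* (chromosome 16, 25683763 to 25892102 in GENCODE M21 on GRCm38, plus strand) had 947 wild-type and 900 inversion reads, or 959 and 889 normalized reads. Its log2 ratio of -0.11 was the one nearest 0 among the 10 genes, with 95% limits of -0.24 and 0.02, and no difference was detectable at this depth. The gene has 2 start sites, the upstream one giving the TA forms with a transactivation domain and the downstream one the ΔN forms, which dominate in basal epidermis. In the table, 2 transcripts that begin within 2 bases of each other at the upstream site carried 500.2 and 465.2 normalized reads and 3 beginning at the downstream site (25801916) 458.7 and 423.7. Transcripts of the upstream site thus took 52.2% of the reads of the gene in wild type and 52.3% in the inversion. Their log2 ratios were -0.10 (95% interval -0.29 to 0.08) and -0.11 (95% interval -0.31 to 0.08). Most exons are shared by both forms, and how the authors divided reads between transcripts is not given in the sources used here, so these shares are those of the assignment and not of the promoters.

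Single *Trp63* transcripts varied more than the gene. Trp63-202, of the upstream site, had 488.1 and 448.4 normalized reads, a log2 ratio of -0.12. Trp63-205, which starts at the downstream site, had 355.4 and 296.3, a log2 ratio of -0.26 (95% interval -0.49 to -0.04). Trp63-201 starts at the same base and was on the other side of 0, at 0.26, with 103.3 and 123.5 normalized reads and an interval of -0.13 to 0.65. The intervals of these last 2 transcripts overlap. Trp63-206 had 12 and 17 reads, and Trp63-203 had 0 and 4, at least 1.30-fold higher when set against 3 reads, leaving counting error aside.

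*Grhl3* (chromosome 4, 135541888 to 135573630, minus strand), a grainyhead-like factor needed for the epidermal barrier and for closure of epithelia, had 422 wild-type and 332 inversion reads. This gave 427 and 328 normalized reads and the lowest log2 ratio of the 10 genes, -0.38 (95% interval -0.59 to -0.17). The intervals of *Grhl3* and *Trp63* overlap, so the order of the pair is not fixed by these reads.

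The basal keratins were close to one another. *Krt5* (chromosome 15, 101707070 to 101712898), the type II chain, had 1728 wild-type and 1520 inversion reads, or 1750 and 1501 normalized reads, with a log2 ratio of -0.22 (95% interval -0.32 to -0.12). *Krt14* (chromosome 11, 100203162 to 100207548), its type I partner, had 942 and 816 reads, or 954 and 806 normalized reads, and a log2 ratio of -0.24 (95% interval -0.38 to -0.11). *Krt15* (chromosome 11, 100131758 to 100135928), another type I chain of basal cells, had 369 and 323 reads, or 374 and 319 normalized reads, and a log2 ratio of -0.23 (95% interval -0.45 to -0.01). The 3 log2 ratios had an SD of 0.01, which is well below the counting error of each, so their closeness carries no weight. Over protein-coding transcripts alone they were further apart, at -0.15 (*Krt5*), -0.22 (*Krt14*) and -0.24 (*Krt15*). The genes lie on 2 chromosomes, with 67233 bases between *Krt15* and *Krt14*. Related keratins share stretches of sequence, so reads of these genes may in part be split between family members.

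Between transcripts of one gene, intervals were apart in *Krt5*, and they overlapped in *Krt14* and in *Krt15*. Krt5-201 had 1438 and 1298 normalized reads and a log2 ratio of -0.15 (95% interval -0.26 to -0.04). A second *Krt5* transcript of the table, ENSMUST00000080158, which is not in GENCODE M21, had 311.9 and 203.4 normalized reads and a log2 ratio of -0.61 (95% interval -0.88 to -0.36). The intervals of these transcripts do not overlap, and the second one took 17.8% of the wild-type and 13.6% of the inversion reads of *Krt5*. Krt14-201, with 736.2 and 632.1 normalized reads, and Krt14-202, a processed transcript with 217.7 and 173.8, were at -0.22 and -0.32. The 3 transcripts of *Krt15*, one of them annotated as a retained intron, were at -0.24, -0.17 and -0.28.

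The simple epithelial keratins were rare. *Krt8* (chromosome 15, 101996698 to 102004482) had 43 wild-type and 38 inversion reads, or 43.5 and 37.5 normalized reads. Its partner *Krt18* (chromosome 15, 102028180 to 102032027), which lies 23697 bases away, had 60 and 50 reads, or 60.8 and 49.4 normalized reads. Their log2 ratios were -0.21 (95% interval -0.88 to 0.45) and -0.29 (95% interval -0.87 to 0.27), and no difference was detectable at this depth. Summed, the pair held 103 and 88 reads, with a log2 ratio of -0.26 and an interval of -0.69 to 0.16. The basal keratins summed to 3077 and 2626 normalized reads and the simple ones to 104.3 and 86.9.

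The 3 membrane proteins were each lower with intervals below 0. *Epcam* (chromosome 17, 87635979 to 87651129), an adhesion molecule of most epithelia, had 531 wild-type and 426 inversion reads, or 538 and 421 normalized reads, and stood at -0.35 (95% interval -0.54 to -0.17). *Cdh1* (chromosome 8, 106603351 to 106670246) had 807 and 716 reads, or 817 and 707 normalized reads, and stood at -0.21 (95% interval -0.36 to -0.06). Its 2 transcripts, Cdh1-201 with 735.1 and 638.0 normalized reads and Cdh1-203 with 82.0 and 69.1, were at -0.20 and -0.24. *Perp* (chromosome 10, 18845020 to 18857073), a p63 target and component of desmosomes, had 683 and 594 reads, or 692 and 587 normalized reads, and stood at -0.24 (95% interval -0.40 to -0.08).

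**Figure D2:**
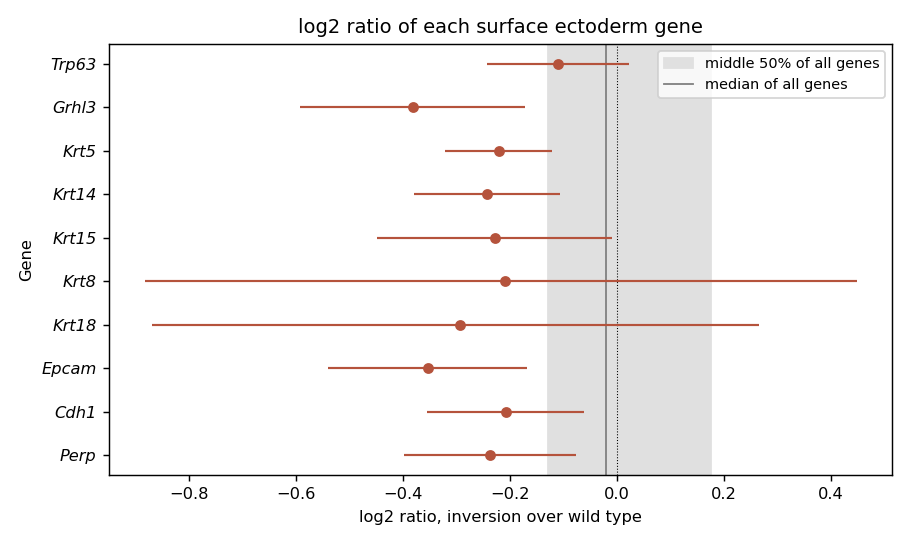
Log2 ratios (inversion over wild type) of the 10 genes, with bars for the 95% counting interval. The grey band is the middle 50% of all genes passing the filter, from -0.13 to 0.18, and the grey line their median of -0.02. Of the 10 points, 9 lie to the left of the band and *Trp63*, at -0.11, lies inside it.

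The spread among the 10 genes was small. The SD of their log2 ratios was 0.08, against 0.34 for the 12697 genes whose mean lay in the range of the 10 genes (40.5 to 1625 normalized reads). These sets were not matched by mean within that range, and the larger one includes *Xist* at -7.58, so the SDs are not of like sets. In none of the 45 pairs of genes were the 95% intervals apart, and all 10 intervals included their own median of -0.23. Pairs of other genes were not counted, so whether this is unusual cannot be said. The median of all genes, -0.02, was inside 4 of them. Values of this size are common in these libraries, as 24.4% of all genes, and 25.5% of those in the same range of means, had a log2 ratio between that of *Grhl3* and that of *Trp63*.

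**Figure D3:**
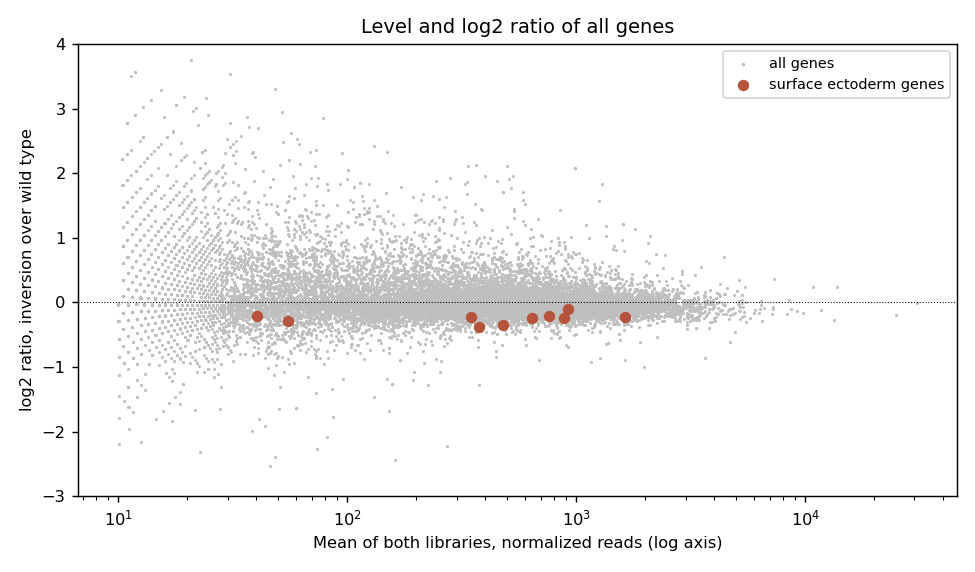
Mean of both libraries in normalized reads (log axis) against the log2 ratio (inversion over wild type), for the genes passing the filter (grey) and the 10 surface ectoderm genes (red). The drawn range of -3 to 4 leaves out 5 genes. The red points form a band just below 0, inside the cloud of genes of the same mean.

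Taken as single transcripts, 19 are listed for the 10 genes, of which 16 were lower and 3 higher in the inversion library. The 3 higher ones all belong to *Trp63*, and none of them had an interval wholly above 0. Of the 16 lower ones, 9 had an interval wholly below 0. Of the 19, 18 reach a mean of 10 normalized reads, and the 16 and 9 are among these. Over all transcripts that reach it, 50.3% were below 0, and 9.21% had an interval wholly below 0.

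**Figure D4:**
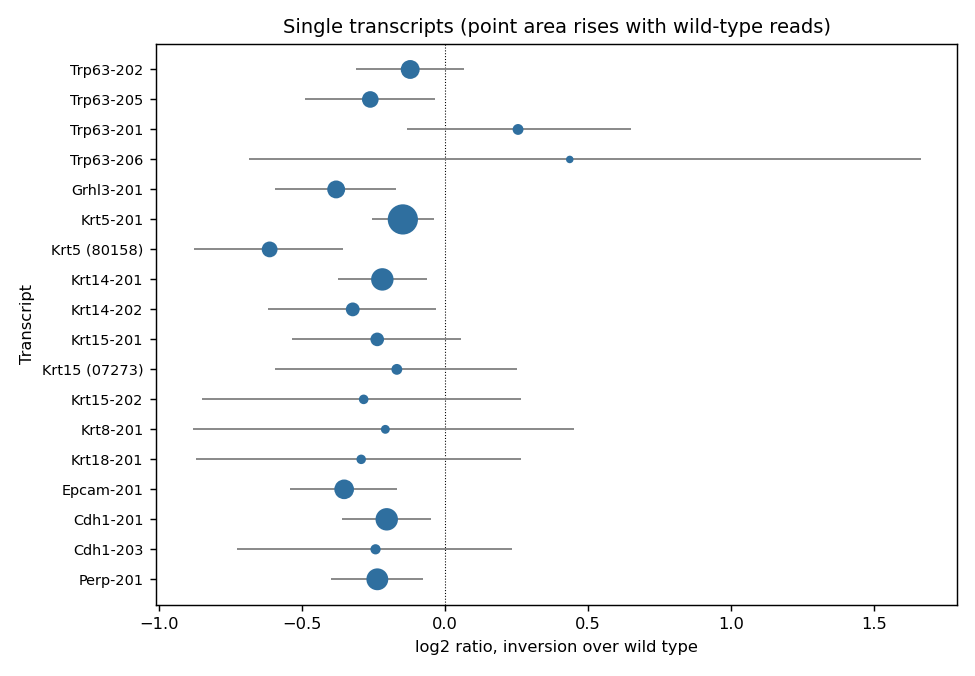
log2 ratio of inversion over wild type for the transcripts of the 10 genes that had reads in the wild-type library, with bars for the 95% counting interval and a point area that rises with the wild-type reads. Numbers in brackets are the last digits of the Ensembl identifier where GENCODE M21 has no name. The second *Krt5* transcript stands at -0.61, to the left of Krt5-201 at -0.15, and the transcripts to the right of 0 are those of *Trp63*.

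Levels of different genes were compared per kb of transcript, with lengths from GENCODE M21. In the wild-type library *Krt5* was highest with 654 normalized reads per kb (95% interval 621 to 689), counted over Krt5-201 alone, which held 82.2% of the reads of the gene. *Krt14* followed with 628 (588 to 669), and the intervals of the pair overlap. With its other transcript *Krt5* would be higher, so this overlap does not show that the levels are alike. *Perp* had 354 (328 to 382) and *Epcam* 264 (242 to 287). *Krt15* with 214, *Trp63* with 197 and *Cdh1* with 192 could not be placed in order, as their intervals overlap, and the level of *Krt15* leaves out a transcript with 27.4% of its reads. With that transcript *Krt15* would be higher, so its place below *Epcam* is not settled either. *Grhl3* had 153 (139 to 169), *Krt18* 42.3 (32.3 to 54.4) and *Krt8* 22.2 (16.1 to 30.0). In the inversion library the order was the same, except that *Trp63* (186) stood just above *Krt15* (179). The level of *Krt5* per kb was above that of 94.5% of the 21859 genes with a level in wild type and that of *Krt8* above 37.3%. These shares were 93.4% and 33.5% in the inversion.

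As a check of the label, other genes of ectoderm were read in both libraries. *Wnt7a*, of dorsal limb ectoderm, had 328 and 276 reads and a log2 ratio of -0.28 (95% interval -0.52 to -0.05). Not all went this way: *En1*, of ventral ectoderm, was at 0.34 (95% interval 0.001 to 0.68) and *Jag2* at 0.18. They were the 2 higher genes of the 13 of the limb ectoderm and ridge list that passed the filter. The other 11 were lower, where 53.4% of all genes were below 0. *Fgf8*, of the apical ectodermal ridge, had 64 and 58 reads and a log2 ratio of -0.18 with an interval that includes 0. Among other genes of the ridge, *Fgf9* had 218 and 213 reads and *Sp8* 185 and 188, while *Fgf4* (1 and 3), *Fgf17* (5 and 5) and *Sp6* (2 and 2) were rare. Several of the 10 genes, such as *Epcam*, *Cdh1*, *Krt8* and *Krt18*, are expressed in any epithelium. Of 19 marker genes of gut, liver, lung or kidney epithelium, 16 are in the table and 5 passed the filter, and the factors *Foxa2* (0 and 1 read) and *Hnf4a* (2 and 3) were at or near 0 in both libraries. Among the 5 were the liver gene *Alb*, with 489 and 750 reads, and the gut gene *Lgals4*, with 4 and 58. *Lgals4* passed the filter only through the library where it is high. *Apoa1* (13 and 17 reads) and *Sox17* (64 and 80), which endothelium also expresses, have intervals that include 0. The other 3 of the 5, *Alb*, *Lgals4* and *Ttr* (69 and 104 reads), have intervals wholly above 0 (16.7% of all genes). The median of the 5 was 0.55. Of the 11 that did not pass, none had over 9 wild-type or 12 inversion reads, the most being those of *Foxa1* (9 and 6) and *Foxa3* (6 and 12). The summed level of this list was 679 and 1038 normalized reads, and its part in the values of the 10 genes was not tested. *Wnt7a*, the ridge genes, *Apoa1*, *Hnf4a* and the *Foxa* genes were named here after their values were seen.

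The other epithelial genes were taken from lists written by known role, with earlier results of these data known. Among 34 other keratin genes, 14 passed the filter, of which 10 were lower and 4 higher, with a median log2 ratio of -0.17. *Krt17*, of periderm and appendages, had 434.4 and 347.6 normalized reads and a log2 ratio of -0.32 (95% interval -0.53 to -0.11). *Krt7* was at -0.12, *Krt16* at -0.16 and *Krt75* at -0.78 (61 and 36 reads). *Krt35*, with 14 and 20 reads, was at 0.45. Intervals wholly below 0 were found for 3 of the 14 and wholly above 0 for none, against 13.0% and 16.7% of all genes.

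Of 22 genes of desmosomes, adherens and tight junctions, 16 were lower and 6 higher, with a median of -0.14, and 6 intervals were wholly below 0 and 2 above (13.0% and 16.7% of all genes). P-cadherin (*Cdh3*), the classical cadherin of basal cells, had 2250 and 2078 normalized reads and a log2 ratio of -0.11 (95% interval -0.20 to -0.03). The desmosomal plaque genes *Dsp* and *Jup* were at -0.05 and -0.08 with intervals that include 0. *Marveld3*, of tight junctions, was at -0.43 with 20 and 15 reads, and the plakophilin *Pkp2* at 0.72 with 54 and 92 reads (95% interval 0.23 to 1.25).

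In the list of epithelial surface proteins and proteases with their inhibitors, 11 of 13 genes were lower, with the same median as the 10 genes, -0.23, and 5 intervals below 0 against 1 above, where all genes have 13.0% below and 16.7% above. The protease inhibitor genes *Spint2* and *Spint1* were at -0.20 and -0.23. *Rab25*, a small GTPase of epithelial trafficking, was at -0.75 with 58 and 35 reads. *Myo5b* was the highest, at 0.42 (95% interval 0.08 to 0.78).

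Among 14 epithelial transcription and splicing factors, 13 passed the filter, 8 lower and 5 higher, with a median of -0.04. *Tfap2a*, which encodes AP-2α and is listed under the older symbol *Tcfap2a*, had 573 wild-type and 371 inversion reads and the lowest log2 ratio of the list, -0.66 (95% interval -0.86 to -0.47). AP-2α is also made in limb mesenchyme. *Esrp1*, a splicing factor of epithelial cells, was at -0.31 (95% interval -0.48 to -0.13). *Tfap2a* and *Esrp1* were the 2 genes with intervals wholly below 0, and 1 gene of the list has one wholly above 0, counts of 13 that lie near or under the 13.0% and 16.7% of all genes. This is *Grhl1*, a relative of *Grhl3* named after its values were seen, with 69 and 112 reads and a log2 ratio of 0.66 (95% interval 0.22 to 1.12). *Elf5*, with 7 and 17 reads, was at 1.14 with an interval that includes 0, and passed the filter only through the inversion library.

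Genes that anchor the basal layer to the basement membrane lay on the other side. Of 13 such genes 9 were higher and 4 lower, with a median of 0.12, and 6 intervals were above 0 (16.7% of all genes) and 2 below, the latter near the 13.0% of all genes. *Dst*, a plakin of hemidesmosomes, had 2417 and 2511 normalized reads and a log2 ratio of 0.06. *Plec* was at 0.17 and the laminin chain gene *Lama5* at 0.42 (95% interval 0.31 to 0.53). *Col17a1*, the transmembrane collagen of hemidesmosomes, was at -0.11 (95% interval -0.21 to -0.01). *Dst*, *Plec* and *Lama5* are also expressed outside ectoderm. The list includes *Itga6*, at an end of the inverted segment and named after its values were seen, with 1196 and 1509 reads and a log2 ratio of 0.30.

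Of 16 signalling and patterning genes of limb ectoderm and ridge, 13 passed the filter, with 11 lower, 2 higher and a median of -0.15. Intervals were wholly below 0 in 4 of them and wholly above 0 in 2, against 13.0% and 16.7% of all genes. *Wnt7b* had 842.5 and 671.5 normalized reads and a log2 ratio of -0.33 (95% interval -0.48 to -0.18), and *Wnt4* was at -0.09. *Wnt10a* was the lowest at -0.62 with 65 and 43 reads. *En1*, of ventral ectoderm, was at 0.34 (95% interval 0.001 to 0.68) and the Notch ligand gene *Jag2* at 0.18 (95% interval 0.01 to 0.35). Late differentiation genes were mostly without many reads: of 13, 9 are in the table and 3 passed the filter, *Tgm1* at -0.16, *Abca12* at -0.20 and *Lor* at -0.87 (56 and 31 reads).

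Markers of other cell types were read in the same libraries. The 7 erythroid genes were all lower, with a median of -0.23, 3 intervals wholly below 0 (13.0% of all genes) and summed levels of 24776 and 21107 normalized reads. The 8 endothelial genes were all lower too, but 6 of their intervals include 0 (median -0.09, summed levels 4850 and 4528). Of 6 macrophage genes 4 were lower, with 5 intervals that include 0, and the summed levels of 1001 and 963 did not differ beyond counting error (log2 ratio -0.06, 95% interval -0.19 to 0.07). The 17 mesenchymal genes had a median of -0.01, with 9 lower and 8 higher, among them *Vim* at -0.25 and *Col1a1* at 0.70. Of their intervals 10 include 0, 5 lie wholly above 0 and 2 wholly below (16.7% and 13.0% of all genes). Their summed levels were 34408 and 37909, a log2 ratio of 0.14 (95% interval 0.12 to 0.16). Muscle genes were higher in 7 of 8 (median 0.70, summed levels 1104 and 2139), cartilage genes in 5 of 6 (median 0.62, 12367 and 15301) and melanoblast genes in 6 of 7 that passed the filter (median 0.23, 932.6 and 1032). Intervals wholly above 0 were also found for 5 muscle, 5 cartilage and 2 melanoblast genes and 1 macrophage gene, against 16.7% of all genes. Of these, *Pax7* (7 and 36 reads) and *Tyrp1* (7 and 21) passed the filter only through the inversion library. No gene of the erythroid, endothelial, macrophage, mesenchymal, muscle or cartilage list was at 0 in either library, and 1 melanoblast gene was at 0 in the inversion library. The part of these cell types in the values of the 10 genes was not tested. *Xist*, of the inactive X chromosome, had 2607 and 13 reads and the Y-linked gene *Kdm5d* 270 and 909, so that the wild-type library holds RNA of both sexes and the inversion library hardly any *Xist*. This difference in sex composition cannot be told apart from genotype.

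**Figure D5:**
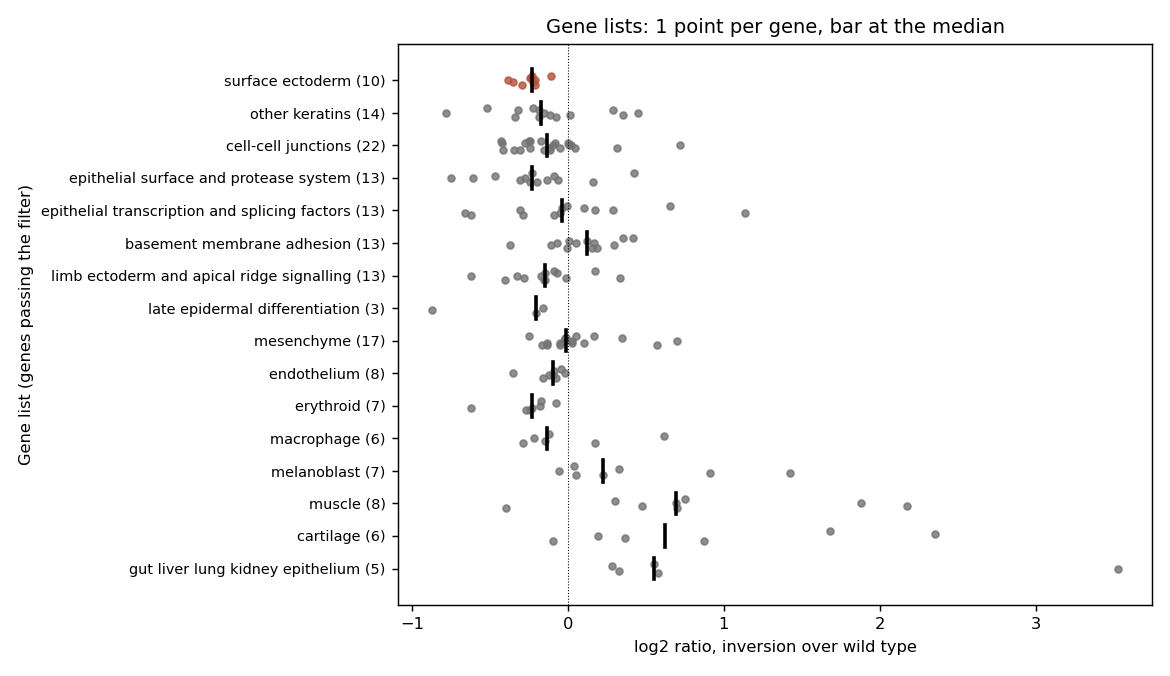
log2 ratio of inversion over wild type, 1 point for each gene that passed the filter, by gene list, with the number of genes in brackets and a black bar at the median. The 10 surface ectoderm genes (red) lie around their median of -0.23, which the erythroid and epithelial surface lists share, and the endothelial genes also lie close together, all below 0. Muscle and cartilage genes extend to the right.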

How the data were processed

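Strand-specific, poly(A)-selected RNA of E12.5 distal forelimbs was analysed, 1 library per genotype. The authors mapped reads to NCBIM37 (Bowtie2 and mm9 per the labels) and used the HTSstation pipeline to give values per transcript. Their methods name RPKM, while the deposited signal columns hold read numbers scaled by library, with 0.5 in place of no reads (taken as 0). In 100% of values above 0.5 the scaling could be undone to whole reads, within 0.01 normalized reads plus 1e-05 of the value (largest deviation 0.0668), for totals of 9280660 (wild type) and 9466154 (inversion). The authors' mean, ratio (fold), log2 and p-value columns were deposited too and were not used.

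Transcripts were summed by symbol and chromosome. The authors' scaling was kept, with a pseudocount of 1, which makes ratios of rare genes look smaller, and a mean of at least 10. Ratios have Clopper-Pearson and levels Poisson intervals. A fold against 0 reads was set against 3 reads. GENCODE M21 held 88.1% of transcripts, on another build than the mapping, and no coordinate was converted. Older symbols served for 3 genes.

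The 10 genes and all lists were chosen with earlier results of these data known. The rule named, from each other list, the 3 genes with the highest mean and those with the highest and lowest log2 ratio. It was followed for the epithelial lists, except for some genes that are not reported here, and only some of its genes are printed for other cell types. Steps were tested on simulated data. Alternatives were scalings, pseudocounts, filters, transcript choices, thresholds and an exact binomial test on reads. Versions were matplotlib 3.10.9, scipy 1.17.1, pandas 2.3.3, numpy 2.4.6 and Python 3.11.15.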

Additional observations from a re-analysis of the deposited data

How the results depend on the processing

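No paired analysis was possible because both groups hold a single library. Each of the 10 genes stayed below 0 under every alternative run for it, inside its counting interval in 78 of 78 values (from -0.40 to -0.10). Part of these values could not move. A filter leaves the ratio of a gene as it is, and genes with a single transcript keep theirs under the transcript choices. All alternatives use the same reads, so the count is no measure of repeatability. The median of the 10 genes stayed between -0.25 and -0.22. Requiring a mean of 100 leaves out *Krt8* and *Krt18* and gives 8 genes lower. The median of all genes moved from -0.02 to -0.01 when scaled by total reads and to -0.04 by the upper quartile. Of 128 medians of other lists, 126 stayed between the medians of the lower and upper interval limits of the genes. The cartilage median (0.62) became 0.37 when a mean of 100 was required, and 0.73 when each gene was read from its highest transcript. By another measure, 15 of the 128 moved by over 1.5 times. Melanoblasts went from 0.23 to 0.14 without the filter, 0.05 at a mean of 100, 0.09 by highest transcript and 0.13 over protein-coding transcripts. Other keratins went from -0.17 to -0.10 without the filter and -0.28 over protein-coding transcripts, macrophages from -0.13 to -0.04 by highest transcript, and basement membrane genes from 0.12 to 0.20 over protein-coding transcripts. Epithelial factors (-0.04 to -0.05) and mesenchyme (-0.03 to 0.002) were near 0, and mesenchyme alone changed sign. The cause was not tested.

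Against 668 genes at least 2-fold higher and 81 lower, there were 1992 and 1089 without the filter, 139 and 12 when a mean of 100 was required, 1577 and 341 at 1.5-fold, 113 and 13 at 4-fold, and 412 and 110 over protein-coding transcripts. The exact binomial test on reads, which sets one library against the other, gave 2068 higher and 1318 lower genes at an adjusted p-value threshold of 0.05, among them 6 of the 10 genes. For scale, 16756 genes passed the filter in all. Depth limits *Krt8* and *Krt18*.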
